A study of Mus musculus with 15 samples.

Results

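DNA replication genes encode the proteins that license origins, unwind the duplex, copy both strands, supply nucleotides and rebuild chromatin behind the fork. The set described here was a list of 42 such genes, chosen by name from their known roles. Earlier results of these data were known when the list was chosen, so the list as a whole was not tested. Of these, 41 had a probe set with their symbol among the 19527 probe sets that carried exactly 1 symbol, out of 22142 probe sets on the array, and each of the 41 had a single probe set. Mcm7, a subunit of the replicative helicase, was not among the named probe sets and is given no value.

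A cell copies its genome in S phase. In G1, the origin recognition complex, Cdc6 and Cdt1 load the ring-shaped MCM helicase onto origins, and at the onset of S phase Cdc45 and the GINS complex join it so that the forks can start. Many of these genes are under the control of E2F transcription factors and are transcribed mainly in late G1 and S phase, so that their RNA is high in tissues with many dividing cells. In the healthy colon, such cells lie mainly in the lower part of the crypts.

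The arrays measured RNA of whole colon tissue from 15 mice aged 11 weeks, with 1 array per mouse and 5 mice in each of 3 genotype groups. The 5 mice of genotype NEMO IEC-KO Ripk1 S166A/S166A (numbers 94, 95, 33, 27 and 56) lacked NEMO in intestinal epithelial cells and carried, in all cells, a RIPK1 with the S166A change, a serine replaced by alanine. The NEMO IEC-KO mice (16, 30, 31, 15_107a and 18_108a, the last 2 by the start of their titles) lacked NEMO in the same cells and had wild-type Ripk1. The NEMO FL mice (18, 22, 28, 29 and 55) carried the floxed allele and served as controls. The 3 groups shared the floxed NEMO allele, and Villin-Cre, which is active in the intestinal epithelium, drove the deletion, so the other cells of the colon kept NEMO. NEMO links upstream signals to NF-κB activation, RIPK1 is a kinase that can trigger cell death, and NEMO IEC-KO mice develop colitis. The comparisons asked how the replication genes changed with the epithelial loss of NEMO and with the Ripk1 mutation on that background. Mouse 55 carried conflicting labels, with a title that placed it with NEMO FL mice and a genotype field that read NEMO IEC-KO with wild-type Ripk1. It was kept with the NEMO FL mice by its title, and the counts and medians of the replication genes and the counts of the related lists are also given with the other placement. Ikbkg, the gene of NEMO, measured 6.28 in mouse 55, within the 6.18 to 6.55 of the other NEMO FL mice, where NEMO IEC-KO mice lay at 4.85 to 5.30. The mean of 6 neutrophil markers was 4.16 in mouse 55 and 6.58 to 9.11 in NEMO IEC-KO mice, and that of 7 surface colonocyte markers was 11.6 in mouse 55 and 9.57 to 10 in NEMO IEC-KO mice. On these measures mouse 55 lay outside the range of the NEMO IEC-KO mice. The study describes the mice as littermates, but the labels name no litter.

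Values are per probe set on a log2 scale, as read from their range, since the base was not stated. Array medians lay within 6.27 and 6.36. The spread of values within an array (interquartile range) was 3.06 and 3.01 in Ripk1 S166A/S166A mice 94 and 95, against 3.22 to 3.4 in the other 13 mice. Ikbkg, which encodes NEMO, averaged 5.16 ± 0.19 in NEMO IEC-KO mice and 6.38 ± 0.15 in NEMO FL mice (SD, n = 5 each), and it averaged 5.29 ± 0.09 in Ripk1 S166A/S166A mice. Genes of the Y chromosome were high in 5 of 5 Ripk1 S166A/S166A mice, 2 of 5 NEMO IEC-KO mice and 1 of 5 NEMO FL mice, so sex was unevenly spread over the groups. The epithelial markers of the colon were present, with a mean over 8 markers between 11.2 and 11.4 in every mouse. In whole tissue, fewer cells of a type and less RNA per cell cannot be told apart.

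The mean over the 41 replication genes lay at 6.79, 6.52, 7.07, 6.85 and 6.79 in Ripk1 S166A/S166A mice 94, 95, 33, 27 and 56. In NEMO IEC-KO mice 16, 30, 31, 15_107a and 18_108a it lay at 7.7, 7.13, 7.46, 7.49 and 7.37, and in NEMO FL mice 18, 22, 28, 29 and 55 at 7.3, 6.83, 6.94, 6.94 and 6.88. All NEMO IEC-KO mice thus stood above all Ripk1 S166A/S166A mice, whereas NEMO FL mouse 18 stood above NEMO IEC-KO mouse 30. The mice of a group were ordered alike for many members: NEMO IEC-KO mouse 16 had the highest value of its group for 27 members and mouse 30 the lowest for 27, NEMO FL mouse 18 had the highest of its group for 32, and Ripk1 S166A/S166A mouse 33 had the highest for 28 and mouse 95 the lowest for 30. The values of the 41 members in 1 mouse are therefore not independent of each other.

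**Figure D1:**
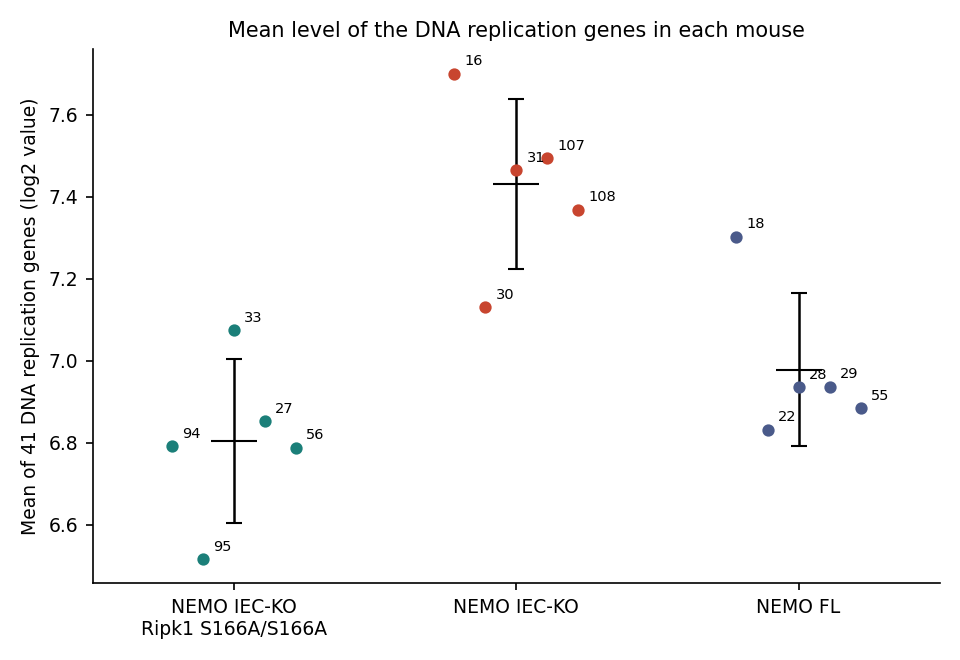
Mean log2 value of the 41 DNA replication genes in each mouse (points, with mouse numbers), by genotype group from Ripk1 S166A/S166A to NEMO IEC-KO and NEMO FL. Horizontal bars and whiskers give the mean and SD of 5 mice. The NEMO IEC-KO mice lie between 7.13 and 7.7, the Ripk1 S166A/S166A mice between 6.52 and 7.07 and the NEMO FL mice between 6.83 and 7.3.

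In NEMO IEC-KO mice, replication genes were higher than in NEMO FL mice. Of the 41 members, 17 were higher at an adjusted p under 0.05 in limma (41.5%), where 11.6% of all probe sets were called higher, and 0 were lower, where 13.8% of all probe sets were called lower. At an unadjusted p under 0.05, 26 were higher and 0 lower, beside 3443 higher and 3830 lower of the 19527 probe sets with 1 symbol. Differences were above 0 for 39 members and ran from -0.09 for Rfc1 to 1.29 for Gins1, with a median of 0.43 on the log2 scale (1.35-fold), beside 0.01 over all probe sets with 1 symbol. Values of the 5 NEMO IEC-KO and 5 NEMO FL mice did not overlap for 4 members, Orc1, Gins1, Prim2 and Rrm2 (9.76% of the members), below the 18.2% of all probe sets whose groups did not overlap. With mouse 55 placed among the NEMO IEC-KO mice, 2 members, Gins1 and Rpa3, remained called and the median was 0.36, and the adjusted p of the 15 members no longer called ran from 0.0524 for Prim2 to 0.383 for Mcm3, while 8.16% of all probe sets were called in either direction, against 25.4% by the title.

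With the Ripk1 mutation, the same list was lower. Between Ripk1 S166A/S166A and NEMO IEC-KO colons, 25 of the 41 members were lower at an adjusted p under 0.05 (61%), where 9.9% of all probe sets were called lower, and 0 were higher, where 9.33% were called higher. At an unadjusted p under 0.05, 35 were lower and 0 higher, beside 3143 lower and 3214 higher of the 19527 probe sets with 1 symbol. All 41 differences were below 0, from -1.36 for Rrm2 to -0.02 for Pold1, with a median of -0.60 (0.661-fold), beside 0.02 over all probe sets with 1 symbol. The groups did not overlap for 13 members (31.7%), against 13.6% of all probe sets. Groups of 5 mice that do not overlap always give the smallest two-sided p of the exact permutation test, 0.00794. That p therefore only restates the absence of overlap. Without Ripk1 S166A/S166A mice 94 and 95, whose arrays had the narrower spread, 13 members remained called lower, 11% of all probe sets were called in either direction and the median was -0.51. The 12 calls lost were Orc6, Mcm2, Mcm3, Mcm4, Mcm5, Mcm6, Cdc45, Gins2, Pola2, Prim1, Tyms and Chaf1b. With mouse 55 among the NEMO IEC-KO mice the count was 14 and the median -0.51. In that fit 6.48% of all probe sets were called in either direction, against 19.2% by the title. The calls lost with mouse 55 so placed were Orc6, Mcm2, Mcm3, Mcm4, Mcm5, Cdc45, Gins2, Pola2, Pole, Rpa2 and Chaf1b. Their adjusted p ran from 0.0522 for Orc6 to 0.279 for Chaf1b. A sex term, with each mouse classed as high or low in Y chromosome genes, gave a count of 18 and a median of -0.63. With it 18.2% of all probe sets were called in either direction. Mcm2, Mcm3, Mcm4, Mcm6, Cdc45, Pola2, Pole and Chaf1b were lost and Rfc4 was gained. The part of sex and of mice 94 and 95 in these differences was not tested further.

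Between Ripk1 S166A/S166A and NEMO FL mice, 0 of the 41 members were called in either direction in limma, where 0.0181% of all probe sets were called higher and 0.0361% lower. At an unadjusted p under 0.05, 0 members were higher and 6 lower, beside 993 higher and 1050 lower of the 19527 probe sets with 1 symbol. The 6 members were Orc6, Prim2, Pcna, Rfc3, Fen1 and Tyms, with log2 differences of -0.32, -0.36, -0.46, -0.42, -0.41 and -0.33. The smallest adjusted p over all members was 0.414. The median difference was -0.14, and the groups overlapped for every member, where 1.65% of all probe sets had groups that did not overlap. The 95% intervals of the 41 differences spanned -0.80 (the lower bound for Pcna) to 0.46 (the upper bound for Mcm10), so differences of that size could have been missed. Of the 41 members, 36 had a Ripk1 S166A/S166A mean below both other groups, 5 had one between them and 0 above both. The mean was nearer to that of the NEMO FL mice for 39 members.

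Because both calls against NEMO IEC-KO mice use the same 5 NEMO IEC-KO mice, they are not independent of each other. Side by side, 15 members were called in both: Orc1, Cdc6, Mcm3, Mcm5, Gins1, Gins2, Pola2, Prim2, Pole, Pole2, Rpa2, Rpa3, Fen1, Rrm1 and Rrm2. Mcm10 and Chaf1a were called only between NEMO IEC-KO and NEMO FL colons. A further 10 members, Orc6, Mcm2, Mcm4, Mcm6, Cdc45, Prim1, Pcna, Rfc3, Tyms and Chaf1b, were called only between Ripk1 S166A/S166A and NEMO IEC-KO colons. The 14 members called in neither were Cdt1, Gins3, Gins4, Pola1, Pold1, Rfc1, Rfc2, Rfc4, Rfc5, Rpa1, Lig1, Tk1, Dut and Uhrf1.

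**Figure D2:**
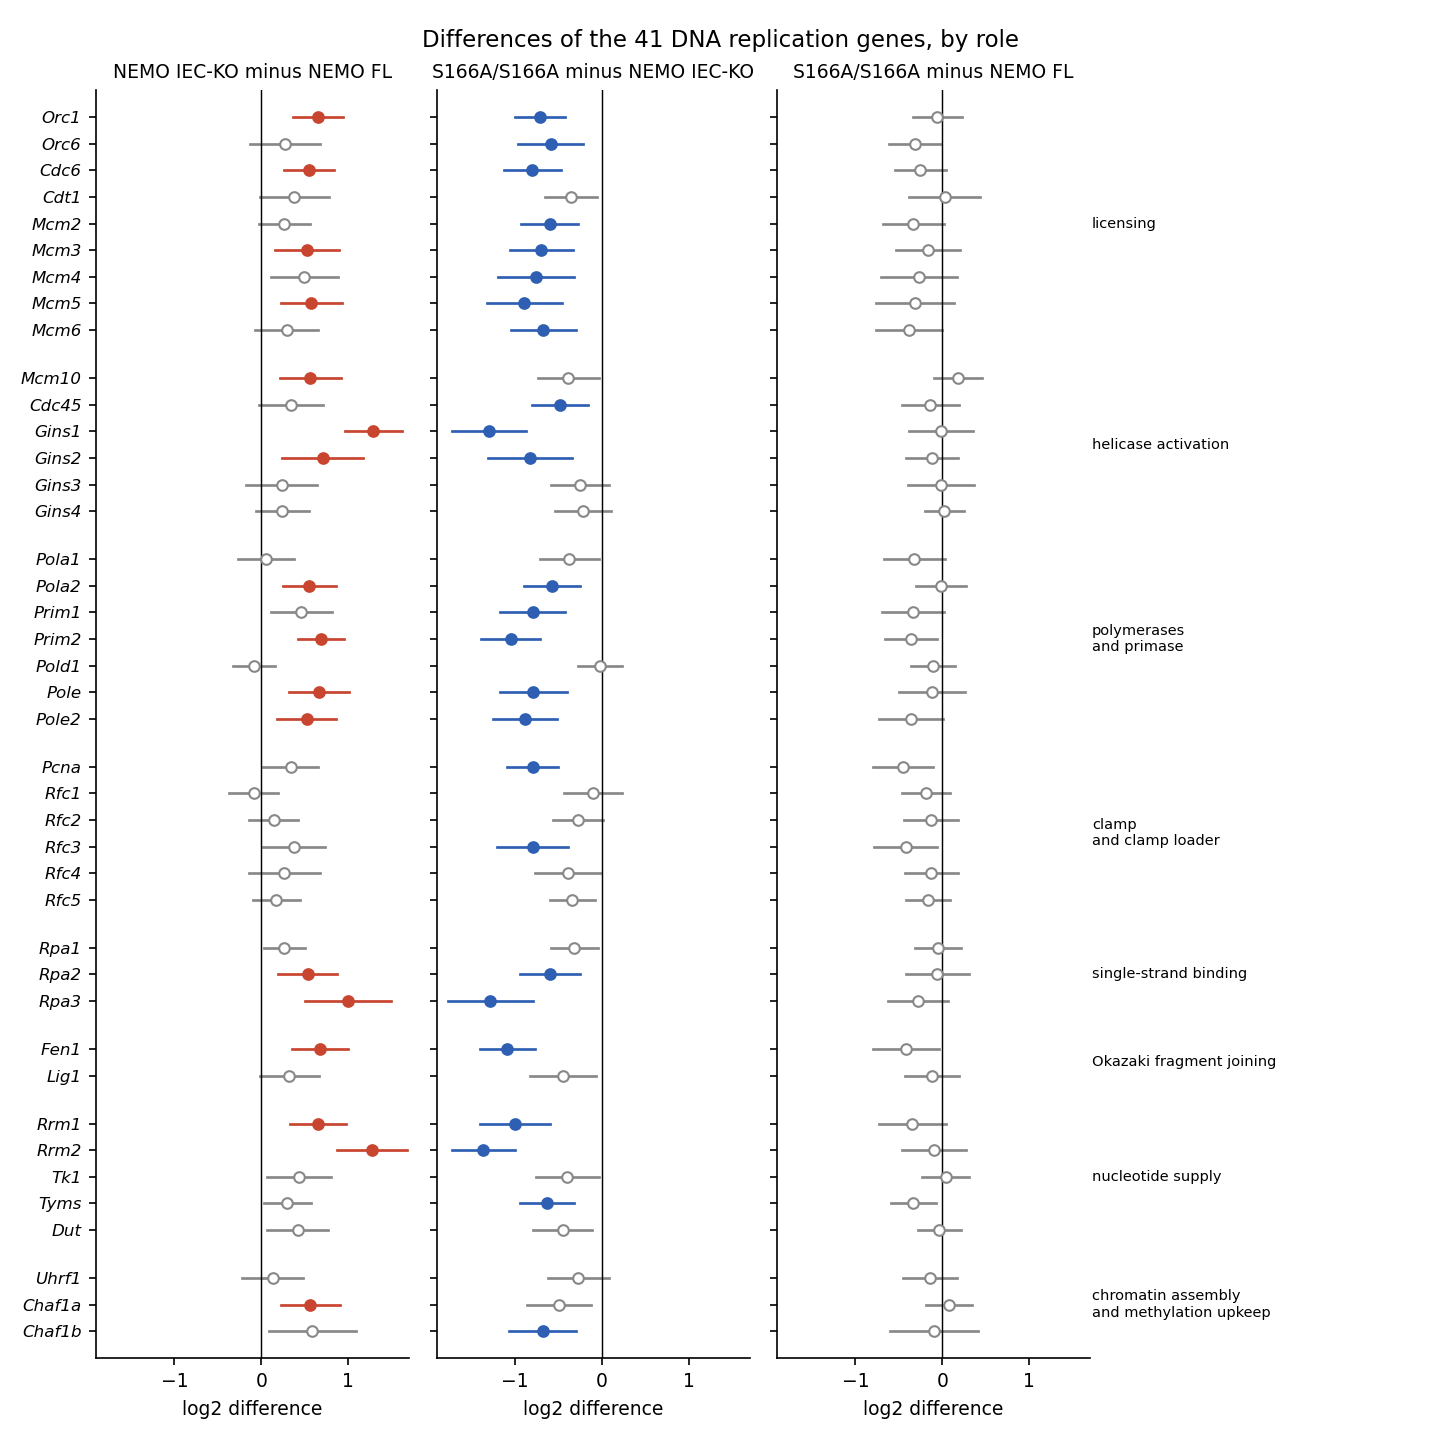
Log2 differences of the 41 DNA replication genes (rows, grouped by role) in 3 comparisons, NEMO IEC-KO minus NEMO FL, Ripk1 S166A/S166A minus NEMO IEC-KO, and Ripk1 S166A/S166A minus NEMO FL. Points are limma estimates and bars their 95% intervals, filled red where called higher, filled blue where called lower and open where not called. In the 3 panels 17 members are filled red, 25 are filled blue and 0 are filled.

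The promoters of the members were searched for motifs known from cell cycle genes. The windows came from RefSeq on build GRCm38.p6 and ran from 250 bases before to 50 bases after the annotated start, and 35 of the 42 listed genes had at least 1 window. The E2F motif was searched as TTTCCCGC, TTTGGCGC, TTTGCCGC or TTTCGCGC on either strand, the CCAAT box as CCAAT on either strand and the CHR element, found in genes of late cell cycle stages, as TTTGAA on either strand. Forms of the E2F motif stood in a window of 14 of these 35 genes (40%), against 3.39% of the 15683 named array genes with a window. A CCAAT box stood in 22 of 35 genes (62.9%), against 42.2% of the array genes, and the CHR element in 4 of 35 (11.4%), against 17.8%. Matches are letters in a window and do not show binding. Among the 34 measured members with a window, 5 of 13 members with an E2F form and 8 of 21 without were called higher between NEMO IEC-KO and NEMO FL colons, and 7 of 13 and 13 of 21 were called lower between Ripk1 S166A/S166A and NEMO IEC-KO colons. Over all probe sets, 11.6% were called higher in the first comparison and 9.9% lower in the second. The median log2 differences were 0.37 with and 0.43 without an E2F form in the first comparison, and -0.67 with and -0.59 without in the second. No test was run on this split.

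The 160 bases before the start are printed for 3 members with an E2F form (Mcm6, Gins3 and Rfc3) and 3 without one in the window (Rrm2, Rrm1 and Pcna), all of whose annotated genes begin at this start. They are printed so that the letters counted above can be seen in genes whose calls are described here. Capitals mark E2F forms and CCAAT boxes on either strand, and each sequence reads 5′ to 3′ on the strand of its gene. Overlapping matches run together, as in Mcm6, where 2 E2F forms share 4 bases.
Mcm6, chr1:128359706-128359865, minus strand: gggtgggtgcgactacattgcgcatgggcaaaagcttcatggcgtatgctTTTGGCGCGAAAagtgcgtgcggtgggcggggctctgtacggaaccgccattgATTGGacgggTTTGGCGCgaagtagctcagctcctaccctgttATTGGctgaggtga
Gins3, chr8:95633399-95633558, plus strand: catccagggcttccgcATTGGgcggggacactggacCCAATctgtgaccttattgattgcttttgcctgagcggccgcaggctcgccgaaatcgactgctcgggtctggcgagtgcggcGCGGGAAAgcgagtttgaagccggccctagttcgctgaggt
Rfc3, chr5:151651209-151651368, minus strand: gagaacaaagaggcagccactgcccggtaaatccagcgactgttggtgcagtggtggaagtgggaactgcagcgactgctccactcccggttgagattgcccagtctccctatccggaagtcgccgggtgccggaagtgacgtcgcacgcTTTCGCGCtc
Rrm2, chr12:24708094-24708253, plus strand: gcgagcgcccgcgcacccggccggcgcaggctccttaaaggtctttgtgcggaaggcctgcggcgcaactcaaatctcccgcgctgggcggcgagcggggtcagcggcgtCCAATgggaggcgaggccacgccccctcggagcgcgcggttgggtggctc
Rrm1, chr7:102441535-102441694, plus strand: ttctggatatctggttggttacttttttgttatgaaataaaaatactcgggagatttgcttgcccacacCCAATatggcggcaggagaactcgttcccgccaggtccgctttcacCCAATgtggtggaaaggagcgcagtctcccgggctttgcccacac
Pcna, chr2:132253181-132253340, minus strand: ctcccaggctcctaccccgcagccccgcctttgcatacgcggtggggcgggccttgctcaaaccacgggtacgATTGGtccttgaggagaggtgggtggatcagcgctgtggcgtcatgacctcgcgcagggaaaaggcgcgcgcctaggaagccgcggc
The Mcm6 stretch held 3 matches of the E2F motif and 2 CCAAT boxes, and Mcm6 was called only between Ripk1 S166A/S166A and NEMO IEC-KO colons. Gins3 had an E2F form, 2 CCAAT boxes and a CHR element (bases -28 to -23, not in capitals), and was called in neither comparison. Rfc3 had an E2F form at bases -10 to -3, counted back from the start, and was called only between Ripk1 S166A/S166A and NEMO IEC-KO colons. Outside the printed bases, the Rfc3 window also held an E2F form at bases 1 to 8 and a CCAAT box at -229 to -225. Rrm2 and Rrm1 had CCAAT boxes only, and both were called in both comparisons, while Pcna, with 1 CCAAT box, was called as Mcm6 and Rfc3 were.

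Licensing genes, which load the MCM helicase onto origins in G1, were higher in NEMO IEC-KO than in NEMO FL colons for 4 of 9 measured members (Orc1, Cdc6, Mcm3 and Mcm5) and lower in Ripk1 S166A/S166A relative to NEMO IEC-KO colons for 8 of 9, all but Cdt1. Over all probe sets, 11.6% were called higher in the first comparison and 9.9% lower in the second. Those 8 became 2 without mice 94 and 95, 4 with the sex term and 3 with mouse 55 among the NEMO IEC-KO mice. In these fits 11%, 18.2% and 6.48% of all probe sets were called in either direction. With mouse 55 placed there, 0 of the 9 were called against NEMO FL mice, where 8.16% of all probe sets were called. Orc1 encodes the largest subunit of the origin recognition complex. It measured 6.04, 5.54, 5.92, 5.89 and 5.71 in Ripk1 S166A/S166A mice, 6.73, 6.39, 6.45, 6.32 and 6.76 in NEMO IEC-KO mice and 6.07, 5.59, 6.11, 5.74 and 5.88 in NEMO FL mice, in the order of mouse numbers given above, which is kept throughout. Orc1 differed by 0.65 (1.57-fold, SE 0.135, adjusted p = 0.00225) between NEMO IEC-KO and NEMO FL colons, and by -0.71 (0.612-fold, SE 0.135, adjusted p = 0.00202) between Ripk1 S166A/S166A and NEMO IEC-KO colons. Every NEMO IEC-KO mouse was above every mouse of the other 2 groups. Mcm5 encodes a subunit of the helicase ring. Its values were 6.66, 6.09, 7.43, 6.54 and 6.50 in Ripk1 S166A/S166A mice, 7.81, 7.16, 7.54, 7.55 and 7.62 in NEMO IEC-KO mice and 7.50, 6.62, 7.08, 6.88 and 6.72 in NEMO FL mice. The differences were 0.58 (1.49-fold, SE 0.166, adjusted p = 0.0186) for NEMO IEC-KO against NEMO FL colons and -0.89 (0.539-fold, SE 0.202, adjusted p = 0.0062) for Ripk1 S166A/S166A against NEMO IEC-KO colons. Here the groups overlapped, since NEMO FL mouse 18 (7.50) and Ripk1 S166A/S166A mouse 33 (7.43) stood above NEMO IEC-KO mouse 30 (7.16). The first Mcm5 call was lost without NEMO FL mouse 22 (adjusted p = 0.0543).

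Of the other licensing genes, Cdc6, which with Cdt1 loads the helicase, showed 0.55 (1.46-fold, SE 0.134, adjusted p = 0.00716) in NEMO IEC-KO against NEMO FL colons and -0.80 (0.575-fold, SE 0.156, adjusted p = 0.00233) in Ripk1 S166A/S166A against NEMO IEC-KO colons. For Cdc6 the Ripk1 S166A/S166A and NEMO IEC-KO colons did not overlap. Mcm2, Mcm4 and Mcm6, further subunits of the ring, had log2 differences of 0.26, 0.49 and 0.29 for NEMO IEC-KO against NEMO FL colons with adjusted p of 0.181, 0.0579 and 0.233. For Ripk1 S166A/S166A against NEMO IEC-KO colons the same 3 had -0.60, -0.76 and -0.67 with adjusted p of 0.0131, 0.0171 and 0.014. Mcm3 differed by 0.53 (adjusted p = 0.0368) and -0.70 (adjusted p = 0.00952) in these comparisons. The Mcm3 call between NEMO IEC-KO and NEMO FL colons was lost in 7 of the 10 fits that left out 1 mouse, those without NEMO IEC-KO mouse 16, 15_107a or 18_108a or NEMO FL mouse 22, 28, 29 or 55. Cdt1 differed by 0.38 (adjusted p = 0.156) and -0.36 (adjusted p = 0.0925). Orc6, another origin recognition subunit, differed by 0.27 (adjusted p = 0.33) and -0.59 (adjusted p = 0.0269). The second Orc6 call was lost in 5 of those fits, without Ripk1 S166A/S166A mouse 94 or 95 or NEMO IEC-KO mouse 16, 31 or 15_107a.

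Genes of helicase activation were called for 3 of 6 members in each comparison with NEMO IEC-KO mice. Over all probe sets, 11.6% were called higher against NEMO FL colons, and 9.9% lower in Ripk1 S166A/S166A against NEMO IEC-KO colons. With mouse 55 among the NEMO IEC-KO mice, Mcm10 and Gins2 were lost in the first comparison and Cdc45 and Gins2 in the second. The second also lost Cdc45 and Gins2 without mice 94 and 95, and Cdc45 with the sex term. These fits called 8.16%, 6.48%, 11% and 18.2% of all probe sets. Gins1 had the greatest difference of all 41 members between NEMO IEC-KO and NEMO FL colons. Gins1 and Gins2 encode subunits of the GINS complex, which binds the loaded helicase together with Cdc45. Gins1 measured 4.78, 4.20, 5.38, 4.61 and 4.88 in Ripk1 S166A/S166A mice, 6.24, 5.63, 6.06, 6.50 and 5.92 in NEMO IEC-KO mice and 4.78, 4.74, 4.56, 5.07 and 4.76 in NEMO FL mice. All 5 NEMO IEC-KO mice were above the other 10 mice, of which the nearest was Ripk1 S166A/S166A mouse 33. The difference was 1.29 (2.44-fold, SE 0.153, adjusted p = 2.32e-05) for NEMO IEC-KO against NEMO FL colons, and -1.30 (0.405-fold, SE 0.2, adjusted p = 0.000412) for Ripk1 S166A/S166A against NEMO IEC-KO colons. Gins2 measured 6.03, 5.59, 6.34, 5.93 and 6.04 in Ripk1 S166A/S166A mice, 7.44, 6.05, 7.12, 7.06 and 6.38 in NEMO IEC-KO mice and 6.30, 6.28, 6.15, 5.82 and 5.99 in NEMO FL mice. Of the NEMO IEC-KO mice, 4 stood above all mice of the other groups, and mouse 30 (6.05) lay within the range of both. Gins2 differed by 0.70 (1.63-fold, SE 0.219, adjusted p = 0.0274) and by -0.83 (0.564-fold, SE 0.228, adjusted p = 0.0191) in these comparisons. Leaving out NEMO FL mouse 29 or 55, or NEMO IEC-KO mouse 16, 31 or 15_107a, ended the first Gins2 call, and leaving out Ripk1 S166A/S166A mouse 95 or NEMO IEC-KO mouse 31 ended the second.

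The other subunits of GINS, Gins3 and Gins4, differed by 0.23 and 0.24 for NEMO IEC-KO against NEMO FL colons (adjusted p = 0.416 and 0.244), and by -0.25 and -0.21 between Ripk1 S166A/S166A and NEMO IEC-KO colons (adjusted p = 0.293 and 0.358). Whether the differences of the 4 subunits differ from each other was not tested. Mcm10, which acts in origin firing, was higher in NEMO IEC-KO than in NEMO FL colons by 0.56 (SE 0.164, adjusted p = 0.0193), and differed by -0.39 between Ripk1 S166A/S166A and NEMO IEC-KO colons (adjusted p = 0.121). The first Mcm10 call was lost without NEMO FL mouse 29 (adjusted p = 0.0532). Cdc45 was the reverse, with 0.34 (adjusted p = 0.172) and -0.48 (adjusted p = 0.0347), and 6 of the 10 fits without 1 mouse lost the second call (Ripk1 S166A/S166A mouse 94, 27 or 56, or NEMO IEC-KO mouse 16, 30 or 15_107a).

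Among polymerase and primase genes, 4 of 7 were higher in NEMO IEC-KO than in NEMO FL colons (Pola2, Prim2, Pole and Pole2) and 5 of 7 were lower in Ripk1 S166A/S166A relative to NEMO IEC-KO colons (the same 4 and Prim1). Over all probe sets, 11.6% were called higher in the first comparison and 9.9% lower in the second. With mouse 55 among the NEMO IEC-KO mice, the first comparison lost those 4 calls and the second lost Pola2 and Pole. The second also lost Pola2 and Prim1 without mice 94 and 95, and Pola2 and Pole with the sex term. These fits called 8.16%, 6.48%, 11% and 18.2% of all probe sets. Prim2, the large subunit of the primase that lays RNA primers, measured 6.42, 5.94, 6.75, 6.62 and 6.48 in Ripk1 S166A/S166A mice, 7.66, 7.40, 7.67, 7.56 and 7.15 in NEMO IEC-KO mice and 6.88, 6.70, 6.65, 6.96 and 6.82 in NEMO FL mice. The NEMO IEC-KO mice stood above all others, and the lowest of them, mouse 18_108a (7.15), was above the highest NEMO FL mouse, 29 (6.96). Prim2 differed by 0.69 (1.61-fold, SE 0.126, adjusted p = 0.000914) for NEMO IEC-KO against NEMO FL colons and by -1.05 (0.484-fold, SE 0.159, adjusted p = 0.00037) for Ripk1 S166A/S166A against NEMO IEC-KO colons. Pole, the catalytic subunit of DNA polymerase epsilon on the leading strand, measured 5.67, 5.02, 6.01, 5.86 and 5.74 in Ripk1 S166A/S166A mice, 6.51, 6.11, 6.49, 6.29 and 6.84 in NEMO IEC-KO mice and 6.28, 5.51, 5.66, 5.74 and 5.73 in NEMO FL mice. It differed by 0.67 (1.59-fold, SE 0.161, adjusted p = 0.00655) and by -0.79 (0.579-fold, SE 0.181, adjusted p = 0.00682). NEMO FL mouse 18 (6.28) lay within the NEMO IEC-KO range, while no Ripk1 S166A/S166A mouse reached it.

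Pole2, the second subunit of polymerase epsilon, differed by 0.52 (adjusted p = 0.0258) between NEMO IEC-KO and NEMO FL colons and by -0.89 (adjusted p = 0.00227) between Ripk1 S166A/S166A and NEMO IEC-KO colons, with no overlap in the second of these. The first Pole2 call was lost without NEMO FL mouse 22 or 29 or NEMO IEC-KO mouse 31. Pola2, the second subunit of polymerase alpha, differed by 0.55 (adjusted p = 0.00941) and -0.57 (adjusted p = 0.0162). Prim1, the catalytic subunit of the primase, had 0.46 (adjusted p = 0.052) and -0.80 (adjusted p = 0.00523). The catalytic subunits of polymerases alpha and delta were called in neither comparison. Pola1 had 0.06 (adjusted p = 0.832) and -0.38 (adjusted p = 0.116), and Pold1 had -0.09 (adjusted p = 0.627) and -0.02 (adjusted p = 0.94), with 95% intervals of -0.33 to 0.16 and -0.27 to 0.23. Pold1 values lay between 6.17 and 6.71 in all 15 mice.

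**Figure D3:**
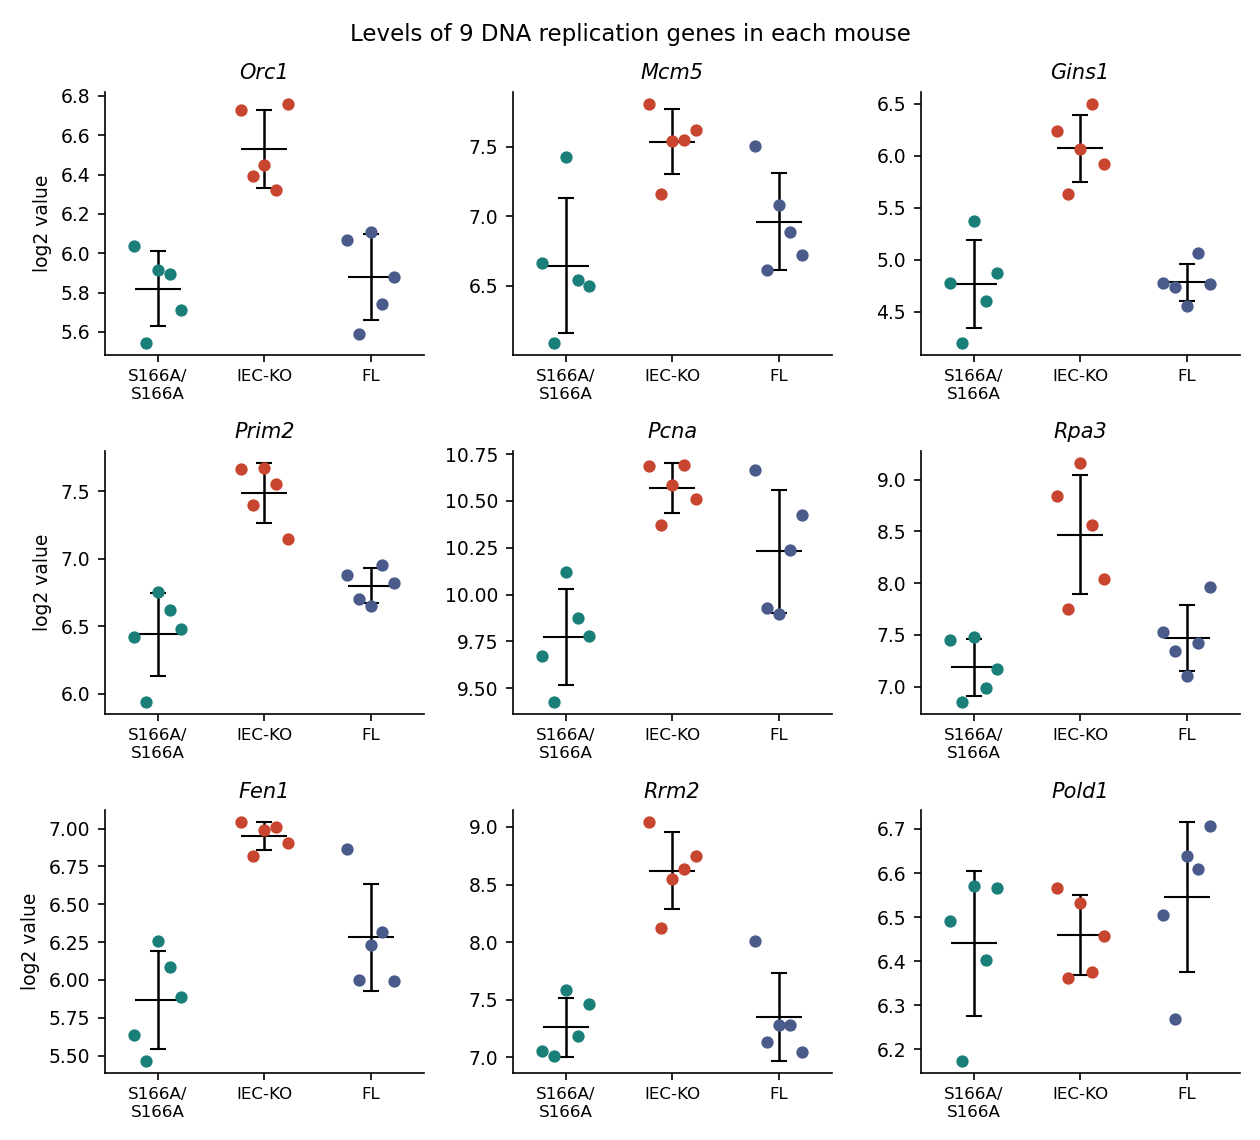
Log2 values of 9 DNA replication genes in each mouse (points) of the Ripk1 S166A/S166A, NEMO IEC-KO and NEMO FL groups, with the mean and SD of 5 mice (bars and whiskers); the axes differ between panels and do not start at 0. NEMO IEC-KO mice lie above both other groups without overlap in Orc1, Gins1, Prim2 and Rrm2, and the 3 groups overlap in Pold1.

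The sliding clamp and its loader had no member called between NEMO IEC-KO and NEMO FL colons, 2 of 6 being higher at an unadjusted p under 0.05. At that threshold 3443 of the 19527 probe sets with 1 symbol were higher. Pcna and Rfc3 were lower in Ripk1 S166A/S166A relative to NEMO IEC-KO colons. Pcna, the clamp that holds polymerases on DNA and a marker of dividing cells, measured 9.67, 9.43, 10.12, 9.88 and 9.78 in Ripk1 S166A/S166A mice, 10.68, 10.37, 10.59, 10.69 and 10.51 in NEMO IEC-KO mice and 10.66, 9.93, 9.90, 10.24 and 10.42 in NEMO FL mice. Its log2 difference was -0.79 (0.577-fold, SE 0.138, adjusted p = 0.00101) for Ripk1 S166A/S166A against NEMO IEC-KO colons, without overlap, and 0.34 (1.26-fold, SE 0.148, adjusted p = 0.11) for NEMO IEC-KO against NEMO FL colons. NEMO FL mouse 18 (10.66) lay within the NEMO IEC-KO range of 10.37 to 10.69, and without it the second difference was 0.45 (adjusted p = 0.0309). Rfc3, a subunit of the loader, measured 6.23, 5.29, 5.63, 5.45 and 5.87 in Ripk1 S166A/S166A mice, 6.90, 6.11, 6.56, 6.71 and 6.16 in NEMO IEC-KO mice and 5.72, 6.12, 6.07, 6.25 and 6.39 in NEMO FL mice. The NEMO IEC-KO values overlapped with those of both other groups. Rfc3 differed by -0.79 (0.577-fold, SE 0.192, adjusted p = 0.00926) for Ripk1 S166A/S166A against NEMO IEC-KO colons and by 0.37 (1.3-fold, SE 0.167, adjusted p = 0.118) for NEMO IEC-KO against NEMO FL colons. The loader subunits Rfc1, Rfc2, Rfc4 and Rfc5 ran from -0.09 to 0.27 between NEMO IEC-KO and NEMO FL colons and from -0.40 to -0.10 between Ripk1 S166A/S166A and NEMO IEC-KO colons, and none was called.

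Replication protein A, which coats single-stranded DNA, was called for Rpa2 and Rpa3 but not Rpa1 in both comparisons. Rpa3, the smallest subunit, measured 7.45, 6.85, 7.48, 6.99 and 7.17 in Ripk1 S166A/S166A mice, 8.84, 7.75, 9.16, 8.56 and 8.04 in NEMO IEC-KO mice and 7.53, 7.35, 7.10, 7.42 and 7.97 in NEMO FL mice. It differed by 1.00 (2-fold, SE 0.234, adjusted p = 0.00535) for NEMO IEC-KO against NEMO FL colons and by -1.28 (0.411-fold, SE 0.23, adjusted p = 0.00132) for Ripk1 S166A/S166A against NEMO IEC-KO colons. NEMO IEC-KO mouse 30 (7.75) was below NEMO FL mouse 55 (7.97), and all Ripk1 S166A/S166A mice were below all NEMO IEC-KO mice. Rpa2, the middle subunit, measured 7.21, 6.84, 7.15, 6.92 and 6.42 in Ripk1 S166A/S166A mice, 7.69, 7.11, 7.46, 7.69 and 7.54 in NEMO IEC-KO mice and 7.41, 6.58, 7.06, 6.76 and 7.02 in NEMO FL mice. Its differences were 0.53 (1.45-fold, SE 0.16, adjusted p = 0.0228) and -0.59 (0.664-fold, SE 0.162, adjusted p = 0.0185). The groups overlapped in both, and the first call was lost without NEMO FL mouse 22 or 29 or NEMO IEC-KO mouse 16 or 15_107a. Rpa1, the large subunit, differed by 0.26 (adjusted p = 0.0965) and -0.32 (adjusted p = 0.0996).

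Joining of Okazaki fragments, the short pieces of the lagging strand, was represented by Fen1 and Lig1. Fen1, the flap endonuclease, measured 5.63, 5.47, 6.26, 6.09 and 5.89 in Ripk1 S166A/S166A mice, 7.04, 6.82, 6.99, 7.01 and 6.90 in NEMO IEC-KO mice and 6.86, 6.00, 6.23, 6.32 and 6.00 in NEMO FL mice. The NEMO IEC-KO mice lay between 6.82 and 7.04, and of the other mice NEMO FL mouse 18 (6.86) alone reached them. Fen1 differed by 0.67 (1.59-fold, SE 0.152, adjusted p = 0.00427) for NEMO IEC-KO against NEMO FL colons and by -1.09 (0.471-fold, SE 0.148, adjusted p = 0.000162) for Ripk1 S166A/S166A against NEMO IEC-KO colons. Lig1, the ligase that seals the nicks, measured 5.88, 5.82, 6.46, 6.10 and 6.42 in Ripk1 S166A/S166A mice, 7.01, 6.05, 6.62, 6.53 and 6.70 in NEMO IEC-KO mice and 6.57, 6.13, 6.12, 6.31 and 6.17 in NEMO FL mice. It differed by 0.32 (1.25-fold, SE 0.159, adjusted p = 0.156) and -0.45 (0.734-fold, SE 0.179, adjusted p = 0.0953), and NEMO IEC-KO mouse 30 (6.05) was below every NEMO FL mouse. Without that mouse both Lig1 differences were called (adjusted p = 0.0258 and 0.0251).

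For nucleotide supply, Rrm1 and Rrm2 were called in both comparisons and Tyms in 1 of them. They encode the large and small subunits of ribonucleotide reductase, which makes deoxyribonucleotides, and Rrm2 is the subunit that is limiting in S phase. Rrm2 measured 7.05, 7.01, 7.59, 7.19 and 7.46 in Ripk1 S166A/S166A mice, 9.04, 8.13, 8.55, 8.64 and 8.75 in NEMO IEC-KO mice and 8.01, 7.14, 7.28, 7.28 and 7.05 in NEMO FL mice. It differed by 1.27 (2.41-fold, SE 0.19, adjusted p = 0.000177) for NEMO IEC-KO against NEMO FL colons and by -1.36 (0.389-fold, SE 0.169, adjusted p = 7.38e-05) for Ripk1 S166A/S166A against NEMO IEC-KO colons, the greatest difference of the 41 members between those groups. The lowest NEMO IEC-KO mouse, 30 (8.13), was above the highest NEMO FL mouse, 18 (8.01). Rrm1 measured 7.16, 7.25, 7.94, 7.75 and 8.10 in Ripk1 S166A/S166A mice, 8.95, 8.31, 8.54, 8.89 and 8.51 in NEMO IEC-KO mice and 8.42, 7.77, 7.91, 7.88 and 7.97 in NEMO FL mice. Its differences were 0.65 (1.57-fold, SE 0.153, adjusted p = 0.00544) and -0.997 (0.501-fold, SE 0.19, adjusted p = 0.002), and NEMO FL mouse 18 (8.42) overlapped with the NEMO IEC-KO mice. Tyms, thymidylate synthase, had 0.30 (adjusted p = 0.0974) and -0.63 (adjusted p = 0.00674). Tk1, thymidine kinase, had 0.43 (adjusted p = 0.0806) and -0.40 (adjusted p = 0.119), and Dut, which removes dUTP, had 0.42 (adjusted p = 0.0783) and -0.45 (adjusted p = 0.0572).

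Chromatin factors of the fork comprised Chaf1a and Chaf1b, subunits of the histone chaperone CAF-1, and Uhrf1, which directs DNA methylation to newly copied DNA. Chaf1b measured 5.94, 5.78, 6.59, 6.49 and 6.00 in Ripk1 S166A/S166A mice, 7.29, 6.91, 6.62, 6.87 and 6.53 in NEMO IEC-KO mice and 7.10, 5.91, 6.52, 6.20 and 5.56 in NEMO FL mice. It differed by 0.59 (1.5-fold, SE 0.234, adjusted p = 0.079) for NEMO IEC-KO against NEMO FL colons and by -0.68 (0.623-fold, SE 0.181, adjusted p = 0.0154) for Ripk1 S166A/S166A against NEMO IEC-KO colons. The NEMO FL mice were widely spread, and without mouse 18 (7.10) the first difference was 0.80 (adjusted p = 0.00837). Chaf1a measured 6.81, 6.25, 6.75, 6.41 and 6.50 in Ripk1 S166A/S166A mice, 7.14, 6.38, 7.10, 7.25 and 7.30 in NEMO IEC-KO mice and 6.53, 6.64, 6.34, 6.38 and 6.45 in NEMO FL mice. It differed by 0.56 (1.48-fold, SE 0.159, adjusted p = 0.0163) and -0.49 (0.711-fold, SE 0.175, adjusted p = 0.0613). NEMO IEC-KO mouse 30 (6.38) stood apart from the other 4 mice of its group. Uhrf1 differed by 0.13 (adjusted p = 0.62) and -0.27 (adjusted p = 0.296).

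**Figure D4:**
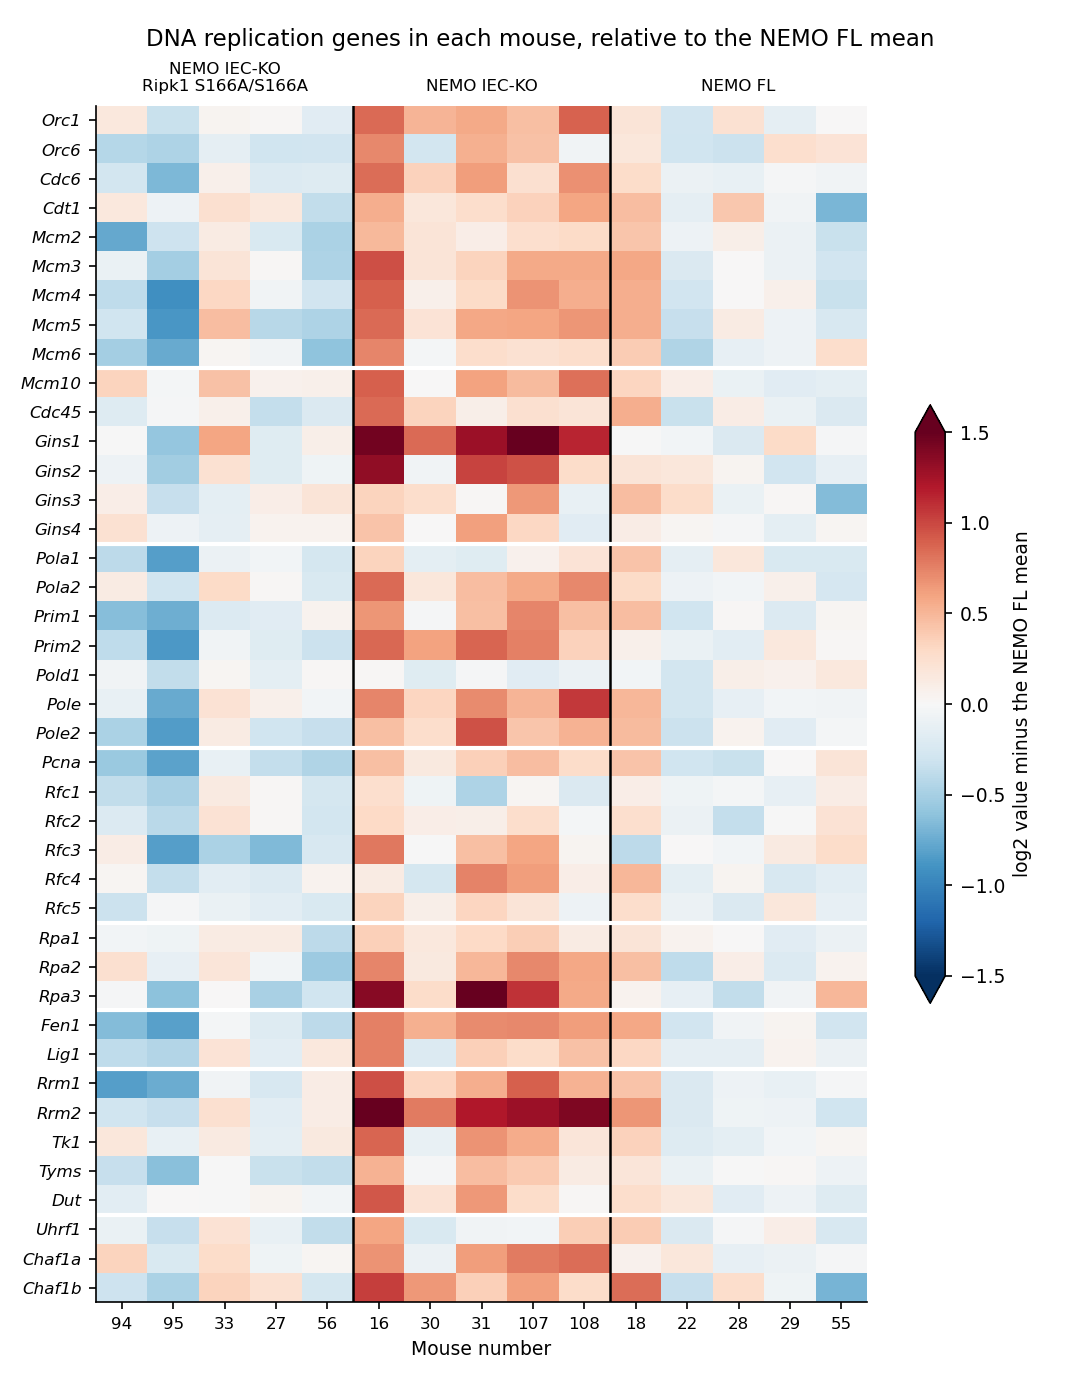
Log2 value of each DNA replication gene (rows, in order of role) minus its mean over the 5 NEMO FL mice, for every mouse (columns, by number) of the Ripk1 S166A/S166A, NEMO IEC-KO and NEMO FL groups; the colour scale ends at 1.5 in both directions. NEMO IEC-KO mouse 16, which has the highest value of its group for 27 members, is the darkest red column, and NEMO FL mouse 18 is red for most members.

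Beyond the 41 members, a list of other replication genes, with 41 of 43 measured, was called in both directions. Between NEMO IEC-KO and NEMO FL colons 9 were higher (22%) and 3 lower (7.32%), beside 11.6% and 13.8% of all probe sets, with a median of 0.27. Between Ripk1 S166A/S166A and NEMO IEC-KO colons 0 were higher and 11 lower (26.8%), beside 9.33% and 9.9%, with a median of -0.35. In total 29.3% of the list was called in the first comparison, near the 26.1% of all probe sets with 1 symbol. With mouse 55 among the NEMO IEC-KO mice the counts were 2 higher and 0 lower in the first comparison and 3 lower in the second. Without mice 94 and 95 the second had 3 lower. In these 3 fits 8.16%, 6.48% and 11% of all probe sets were called in either direction. The greatest rises were in Dbf4, which activates the Cdc7 kinase at origins, by 0.96 (adjusted p = 0.000922), in Asf1b, a histone chaperone, by 0.85 (adjusted p = 0.00159), in Clspn, a checkpoint adaptor at the fork, by 0.63 (adjusted p = 0.011), and in Samhd1, which breaks down deoxyribonucleotides, by 0.61 (adjusted p = 0.00449). In Ripk1 S166A/S166A against NEMO IEC-KO colons Dbf4, Asf1b and Clspn were lower by log2 differences of -1.05, -0.82 and -0.50 (adjusted p = 0.000998, 0.00252 and 0.0234), and Samhd1 had -0.45 (adjusted p = 0.132). The 3 genes lower in NEMO IEC-KO than in NEMO FL colons were Rrm2b, the ribonucleotide reductase subunit used outside S phase (-0.46, adjusted p = 0.008), Mcm9, an MCM relative that acts in repair (-0.39, adjusted p = 0.048), and Orc3, an origin recognition subunit (-0.32, adjusted p = 0.0401). Rrm2b measured 5.68, 5.08, 6.04, 6.43 and 5.98 in Ripk1 S166A/S166A mice, 5.71, 5.72, 5.87, 5.88 and 5.47 in NEMO IEC-KO mice and 6.16, 6.26, 6.01, 6.26 and 6.28 in NEMO FL mice. The NEMO IEC-KO mice were all below the NEMO FL mice, the opposite direction to Rrm2. Rrm2b, Mcm9 and Orc3 in Ripk1 S166A/S166A against NEMO IEC-KO colons had 0.11, 0.05 and 0.12 and were not called (adjusted p = 0.758, 0.839 and 0.626).

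Regulators of the G1/S step were higher for 9 and lower for 1 of 21 measured genes between NEMO IEC-KO and NEMO FL colons, and higher for 1 and lower for 11 between Ripk1 S166A/S166A and NEMO IEC-KO colons. These are 42.9% and 4.76% of the list in the first comparison, beside 11.6% and 13.8% of all probe sets, and 4.76% and 52.4% in the second, beside 9.33% and 9.9%. With mouse 55 among the NEMO IEC-KO mice 1 was higher and 1 lower in the first comparison, and 1 higher and 3 lower in the second. Without mice 94 and 95 the second had 1 higher and 4 lower, and with the sex term 0 and 6. All probe sets called in either direction were 8.16% and 6.48% with mouse 55 so placed. They were 11% without mice 94 and 95 and 18.2% with the sex term. E2f2, an E2F activator, measured 6.81, 5.80, 6.87, 6.39 and 6.67 in Ripk1 S166A/S166A mice, 9.50, 8.72, 8.92, 9.27 and 9.28 in NEMO IEC-KO mice and 7.91, 6.28, 6.65, 6.17 and 6.08 in NEMO FL mice. It was higher in NEMO IEC-KO than in NEMO FL colons by 2.52 (5.74-fold, adjusted p = 1.24e-05) and differed by -2.63 (adjusted p = 9.52e-07) between Ripk1 S166A/S166A and NEMO IEC-KO colons, with no overlap in either comparison. E2f1, another activator, differed by 0.86 (adjusted p = 0.00717) and -0.62 (adjusted p = 0.0127). E2f3, the remaining activator of this family, was lower in NEMO IEC-KO than in NEMO FL colons by a log2 difference of -0.52 (adjusted p = 0.0326) and had 0.36 (adjusted p = 0.22) in the other comparison. The cyclins Ccna2 and Ccne2, partners of Cdk2 in S phase, differed by 1.07 and 0.96 (adjusted p = 0.000223 and 0.00264), and by -0.66 and -1.10 (adjusted p = 0.0241 and 0.000327). Cdkn1a, an inhibitor of cyclin-dependent kinases, was the gene higher in Ripk1 S166A/S166A relative to NEMO IEC-KO colons, by 0.57 (adjusted p = 0.0241).

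Among mitosis genes, 17 of 19 measured were called higher between NEMO IEC-KO and NEMO FL colons (89.5%, beside 11.6% of all probe sets) and 0 were called lower, with a median of 0.80. In Ripk1 S166A/S166A against NEMO IEC-KO colons 14 of 19 were lower (73.7%, beside 9.9% of all probe sets) and 0 higher, with a median of -0.66. With mouse 55 among the NEMO IEC-KO mice 7 were higher in the first comparison and 3 lower in the second. The second had 7 lower without mice 94 and 95 and 8 with the sex term. In these fits 8.16%, 6.48%, 11% and 18.2% of all probe sets were called in either direction. Mki67, a common marker of dividing cells, was called in neither, with 0.21 (adjusted p = 0.337) and -0.17 (adjusted p = 0.517), and Cenpf, a kinetochore protein, had 0.38 (adjusted p = 0.0908) and -0.02 (adjusted p = 0.942). Whether the lists differ from each other was not tested. Aurka, Plk1, Ccnb2 and Birc5, which act in mitosis, differed by 1.21, 1.11, 0.99 and 0.98 in the first comparison (adjusted p = 0.000149, 0.0005, 0.002 and 0.000538). In the second they had -1.04, -0.89, -0.50 and -0.74 (adjusted p = 0.000991, 0.00386, 0.146 and 0.00819). For Ripk1 S166A/S166A against NEMO FL mice 0 genes of these 3 lists were called. At an unadjusted p under 0.05 the counts were 0 higher and 4 lower, 1 higher and 0 lower, and 2 higher and 0 lower. Of the 19527 probe sets with 1 symbol, 993 were higher and 1050 lower at that threshold.

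**Figure D5:**
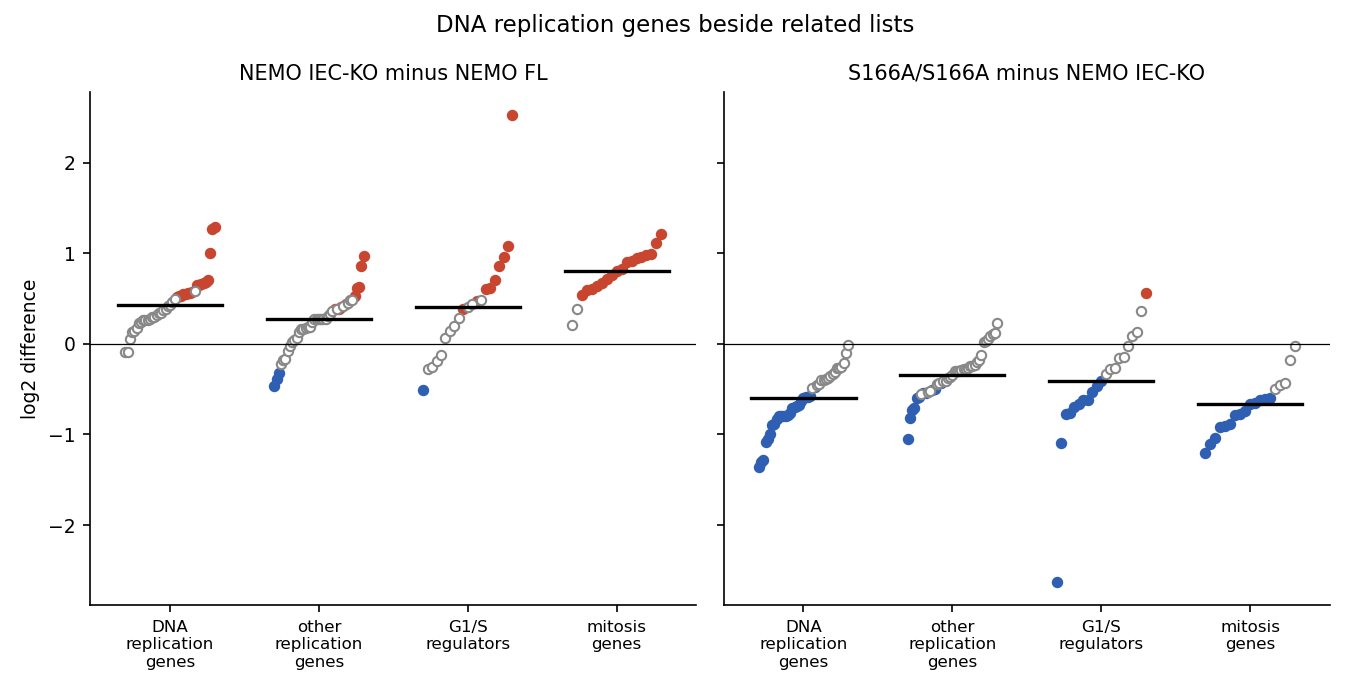
Log2 differences of the genes of 4 lists (points, sorted within each list; black line, median) for NEMO IEC-KO minus NEMO FL and for Ripk1 S166A/S166A minus NEMO IEC-KO. Points are filled red where called higher, filled blue where called lower and open where not called. Medians are 0.43, 0.27, 0.40 and 0.80 in the first panel and -0.60, -0.35, -0.42 and -0.66 in the second.

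Markers of several other cell types moved with the same groups. Their called counts stand beside 11.6% of all probe sets called higher and 13.8% lower between NEMO IEC-KO and NEMO FL colons. Between Ripk1 S166A/S166A and NEMO IEC-KO colons these shares were 9.33% and 9.9%. Over 6 neutrophil markers, the mean log2 value was 4.33 to 4.8 in Ripk1 S166A/S166A mice, 6.58 to 9.11 in NEMO IEC-KO mice and 4.16 to 4.63 in NEMO FL mice, and all 6 were called higher between NEMO IEC-KO and NEMO FL colons. Over 6 T and NK cell markers it was 5.4 to 5.86, 6.03 to 6.77 and 4.83 to 5.83 in these 3 groups, and 5 of 6 were called higher. Plasma cell markers (5 genes, 3 called higher) lay at 6.37 to 7.4, 7.6 to 8.49 and 6.83 to 7.2. Macrophage markers (5 genes, 4 called higher) lay at 6.78 to 7.36, 7.43 to 8.51 and 7.03 to 7.23. In the other direction, surface colonocyte markers (7 genes, 5 called lower) lay at 11.4 to 11.6 in Ripk1 S166A/S166A mice, 9.57 to 10 in NEMO IEC-KO mice and 11.5 to 11.6 in NEMO FL mice, and smooth muscle markers (6 genes, all called lower) at 11.3 to 12, 8.75 to 10.9 and 11.5 to 12. The mean of 5 crypt base markers was 7.23 to 7.55, 7 to 7.2 and 7.02 to 7.54, with 0 called higher and 1 called lower. The epithelial markers had 1 of 8 called higher, and lay at 11.3 to 11.4, 11.3 to 11.4 and 11.2 to 11.4. B cell markers (4 genes, 0 called) lay at 6.62 to 7.38 in Ripk1 S166A/S166A mice, 6.45 to 7.06 in NEMO IEC-KO mice and 5.88 to 6.83 in NEMO FL mice, and 0 of them were called between Ripk1 S166A/S166A and NEMO IEC-KO colons. Fibroblast markers (5 genes, 2 called lower) lay at 8.76 to 9.61, 8.92 to 9.49 and 9.23 to 9.72, also with 0 called between Ripk1 S166A/S166A and NEMO IEC-KO colons. Endothelial markers (5 genes, 1 called lower) lay at 6.36 to 7.09, 6.4 to 7.02 and 6.68 to 7.25. Enteric neuron markers (4 genes, 0 called) lay at 5.95 to 6.85, 6 to 6.64 and 6.06 to 6.72. Between Ripk1 S166A/S166A and NEMO IEC-KO colons, 6 of 6 neutrophil and 5 of 6 T and NK cell markers were called lower. So were 4 of 5 macrophage and 3 of 5 plasma cell markers. Called higher there were 5 of 7 surface colonocyte and 6 of 6 smooth muscle markers. Crypt base and endothelial markers each had 1 of 5 called higher, and epithelial and enteric neuron markers had 0 called. With mouse 55 among the NEMO IEC-KO mice, markers called between NEMO IEC-KO and NEMO FL colons were 2 of 6 for neutrophils, 0 of 6 for T and NK cells, 4 of 7 for surface colonocytes and 0 of 6 for smooth muscle. In that fit 8.16% of all probe sets were called in either direction. Counts of plasma cell and macrophage markers in it are not given here. Replication genes were thus higher in the group with higher neutrophil, T and NK cell, plasma cell and macrophage markers and lower surface colonocyte and smooth muscle markers. Within that group, mouse 16 had the highest replication mean and the lowest neutrophil, macrophage and T and NK cell means. In mouse order, neutrophil means were 6.58, 7.09, 7.635, 7.99 and 9.11. Macrophage means were 7.43, 8.39, 8.14, 8.51 and 8.10, and T and NK cell means 6.03, 6.77, 6.74, 6.51 and 6.47. Surface colonocyte means were 9.645, 9.636, 9.877, 10.02 and 9.569, where mouse 16 was neither the highest nor the lowest. Plasma cell and smooth muscle means are not given by mouse, and the order within the group was not tested. The part of the cell makeup in the differences of the replication genes was not tested.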

How the data were processed

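RNA of whole colon was hybridised by the authors to Clariom S mouse arrays (100 ng of total RNA each), and quality was checked in Affymetrix Expression Console or Transcriptome Analysis Console. The authors deposited 1 table of log2 values for 22142 probe sets and 15 mice. The log2 scale was read from the range of the values. The summary, background correction and normalization are not given in the sources used here. Probe sets were named by the platform annotation, 19527 of them with exactly 1 symbol and 0 with several, and 2615 are unnamed here.

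limma 3.58.1 (lmFit and eBayes, R 4.3.3) was fitted to 2 groups at a time. All 22142 probe sets were tested, p-values were adjusted by Benjamini-Hochberg, and a call needed an adjusted p under 0.05. The exact permutation test of a gene was two-sided and enumerated the 252 ways to split 10 mice. The members and lists were chosen with earlier results of these data known, so the list as a whole was given no test. The value in every mouse was given for the 1 or 2 members of each role with the greatest absolute difference between NEMO IEC-KO and NEMO FL colons, and the other lists were represented by up to 4 genes called in each direction. Cdkn1a was named, Pold1 was plotted, and Rrm2b and E2f2 were given by mouse after their values were seen.

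On simulated data of 22142 probe sets, a log2 change of 1 was recovered for 89% of changed probe sets in NEMO IEC-KO against NEMO FL, 83% for Ripk1 S166A/S166A against NEMO IEC-KO colons, and 91% for Ripk1 S166A/S166A against NEMO FL colons. False calls were 5.5%, 5.67% and 4.98%. The median differences of the members were 0.43, -0.60 and -0.14, so these recovery shares do not apply to changes of that size. The replicates were mice, and 5 a group limit the precision. Alternatives were a joint fit, trend and robust settings, array weights, median centring, quantile normalization, a filter on dim probe sets, only probe sets with 1 symbol, mouse 55 in the other group, a sex term, leaving out mice 94 and 95, other thresholds, and fits without 1 mouse. The counts of role groups, related lists and markers under the mouse 55, mice 94 and 95 and sex alternatives were added after seeing the data. Mki67 and Cenpf were named as the mitosis genes not called between NEMO IEC-KO and NEMO FL colons. Promoter sequences are from RefSeq (GRCm38.p6).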

Additional observations from a re-analysis of the deposited data

Results flagged for a closer look

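Of 126 groups of 5 values examined (the 41 members and their mean in 3 genotype groups), 4 held a mouse far from the others of its group, where chance alone marks about 1 in 20 groups. In NEMO IEC-KO mouse 30, Chaf1a measured 6.38, while the nearest mouse of the group was at 7.1 and the highest at 7.3. The mean of the members was 7.3 in NEMO FL mouse 18, with the nearest mouse at 6.94 and the lowest at 6.83. In the same mouse Cdc6 measured 6.2, against 5.91 in the nearest and 5.81 in the lowest NEMO FL mouse, and Rrm2 measured 8.01, against 7.28 and 7.05. These 3 values belong to the same array, and NEMO FL mouse 18 had the highest value of its group for 32 of the 41 members.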

How the results depend on the processing

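Between NEMO IEC-KO and NEMO FL colons, the count of 17 members called higher became 2 with mouse 55 among the NEMO IEC-KO mice, 10 at a fold of 1.5 with an unadjusted p under 0.05, and 10 at an adjusted p under 0.01. The shares of all probe sets called in either direction were 8.16%, 14.3% and 14.9% there, against 25.4% in the main fit. Leaving out 1 mouse at a time gave 12 to 23 called members and medians of 0.34 to 0.57. Between Ripk1 S166A/S166A and NEMO IEC-KO colons, the count of 25 called lower became 14 with mouse 55 among the NEMO IEC-KO mice, 13 without mice 94 and 95, and 16 at an adjusted p under 0.01. The shares of all probe sets were 6.48%, 11% and 9.52% there, against 19.2% in the main fit. In this comparison 1 mouse left out at a time gave 23 to 29 called members and medians of -0.71 to -0.54. Between Ripk1 S166A/S166A and NEMO FL mice 0 members were called under every alternative that was run, leaving out each mouse included (0 to 0), with medians of -0.21 to -0.07 on leaving out 1 mouse. The median was -0.07 without NEMO FL mouse 18 and -0.09 without Ripk1 S166A/S166A mouse 95, against -0.14 with all mice, and it was -0.06 without mice 94 and 95. The other alternatives left the counts within 1.5 times of the main ones, no median changed sign, and no called member changed direction. Leaving out 1 mouse also added calls: between NEMO IEC-KO and NEMO FL colons Cdc45, Chaf1b, Mcm4, Pcna, Prim1 and Tk1 without NEMO FL mouse 18, Lig1, Mcm4, Prim1, Tk1 and Tyms without NEMO IEC-KO mouse 30, and Dut without mouse 18_108a. Between Ripk1 S166A/S166A and NEMO IEC-KO colons these were Chaf1a, Lig1, Mcm10, Rfc4 and Tk1 without NEMO IEC-KO mouse 30, and Dut and Rfc5 without mouse 18_108a. The cause of these shifts was not tested.

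No paired analysis was possible because the labels name no litter and the mouse numbers differ between the groups. The study describes littermates, so any shared litters could not be entered in the fits. The choice between probe sets of 1 gene could not change a value, since each member had a single probe set. The limits are the 5 mice of each group, the unstated normalization, the uneven spread of sex, the conflicting labels of mouse 55 and the whole-tissue RNA. In the comparison of Ripk1 S166A/S166A with NEMO IEC-KO colons, the sex term rests on the NEMO IEC-KO mice alone, since the Ripk1 S166A/S166A mice were all classed as high in Y chromosome genes.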
